A study of Mus musculus with 6 samples.

Results

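The insulin-like growth factor (IGF) family was followed through 10 genes measured in MC3T3-E1 cells, a clonal mouse pre-osteoblast line from newborn calvaria. They comprise 2 ligands (Igf1, Igf2), 2 receptors (Igf1r, Igf2r) and 6 binding proteins (Igfbp2 to Igfbp7). Each gene was matched by its RefSeq transcript to 1 feature of a single-colour NimbleGen array, so 10 of 42586 features were matched to the family. A gene name could not be given to 24737 features, and these were not searched for further features of the 10 genes. The transcripts are NM_010512 (Igf1, chromosome 10), NM_010514 (Igf2, chromosome 7), NM_010513 (Igf1r, chromosome 7) and NM_010515 (Igf2r, chromosome 17). Those of Igfbp2 to Igfbp7 are NM_008342 (chromosome 1), NM_008343 (chromosome 11), NM_010517 (chromosome 11), NM_010518 (chromosome 1), NM_008344 (chromosome 15) and NM_008048 (chromosome 5). The study placed 3 arrays of undifferentiated cells beside 3 arrays of cells differentiated for 15 days under ascorbic acid (50 µg/mL) and glycerol-2-phosphate (10 mM). All 6 cultures had received 100 nM 1,25(OH)2D3, the hormonal form of vitamin D, for 24 h, and grew in 10% serum at passages 5 to 12. Vehicle-treated cultures were not analysed here, so every value below describes hormone-treated cells and none gives a response to the hormone. The labels call the samples biological triplicates.

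IGF-1 and IGF-2 are secreted peptides that act through the receptor tyrosine kinase IGF1R and promote growth, survival and matrix production of osteoblasts. IGF2R, the cation-independent mannose 6-phosphate receptor, carries IGF-2 to lysosomes for breakdown. Binding proteins hold the ligands in serum and tissue and either block them or store them near cells, and bone matrix is rich in both ligands and carriers.

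Differentiated cells carried far more Igf2 transcript, more Igf1, and more transcript of 4 binding proteins, of which Igfbp5 differed most. Igf1r, which encodes the signalling receptor, was lower. Igf2r, Igfbp4 and Igfbp6 did not pass the test. In limma's moderated test with Benjamini-Hochberg adjustment over all features, at an adjusted p under 0.05, 7 of the 10 features passed, against 19.6% of all features. Of these, 6 were higher in differentiated cells, against 7.97% of all features, and 1 was lower, against 11.7%. The groups did not overlap for the same 7 members, against 40.1% of all features (21.5% higher, 18.6% lower). The shares among the 10 are a description only, because the members were chosen with earlier results of these data known. Igf1, Igf2 and Igfbp5 both passed and rose at least 2-fold, as did 1.1% of all features, and 3.8% did so in either direction. In bulk RNA, a change in the share of a cell type and a change in RNA per cell cannot be told apart. The median log2 difference was 2.50 over the 2 ligands, -0.42 over the 2 receptors and 0.70 over the 6 binding proteins, beside 0.07 over all features. No member lay at or below the random-probe control feature on any array.

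The stretches just before the annotated starts of Igf2, Igf1, Igfbp5 and Igf1r are shown because these were the members that passed under all 18 processing alternatives. They are 120 bases each, written 5′ to 3′ on the gene's strand, from RefSeq (GRCm38.p6), and capitals mark the motif matches described after them. For Igf2, which has 4 starts in that table, the one nearest the 3′ end of the gene is shown.
Igf2, chr7:142657497-142657616, minus strand: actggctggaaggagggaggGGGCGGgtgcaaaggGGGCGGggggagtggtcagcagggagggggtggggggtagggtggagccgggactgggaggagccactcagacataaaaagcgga
Igf1, chr10:87860991-87861110, plus strand: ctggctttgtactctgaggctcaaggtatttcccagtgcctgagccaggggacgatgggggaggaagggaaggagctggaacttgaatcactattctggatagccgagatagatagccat
Igfbp5, chr1:72874866-72874985, minus strand: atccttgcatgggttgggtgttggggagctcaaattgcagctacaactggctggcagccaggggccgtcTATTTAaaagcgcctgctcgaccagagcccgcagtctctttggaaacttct
Igf1r, chr7:67952137-67952256, plus strand: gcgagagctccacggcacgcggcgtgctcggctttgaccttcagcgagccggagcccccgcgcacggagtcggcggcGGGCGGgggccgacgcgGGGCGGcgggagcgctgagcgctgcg

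Each of the 250-base windows before a start was searched on both strands for GGGCGG (the GC box), CCAAT, the TATA-type letters TATAAA and TATTTA, and ACCACA (the RUNX core). The GC box lies at 100 and 85 bases before the Igf2 start shown and at 43 and 26 bases before the Igf1r start. It was found in 6 of the 14 windows of the 10 genes and in 32.7% of all 32817 windows. TATTTA lies 51 bases before the Igfbp5 start and in 12.7% of all windows, and among the members in no other window. TATAAA matched in 2 of the 14 member windows, 28 bases before the start of Igfbp4 and 148 bases before that of Igfbp6, against 12.4% of all windows. CCAAT matched in 3 member windows against 33.8% of all, and ACCACA in 1, that of Igfbp3, against 14% of all. These are matches of letters only. Which of the 4 Igf2 starts its array feature reads was not examined.

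Igf2 encodes the fetal-type ligand and is imprinted, with expression from the paternal copy in most tissues. Its expression value, the authors' linear RMA intensity, was 3458, 3783 and 3379 on undifferentiated replicates 1 to 3 and 31797, 42897 and 40830 on differentiated replicates 1 to 3. The lowest differentiated array lay 3.07 log2 units above the highest undifferentiated one, and undifferentiated replicate 3 lay within 0.10 of the mean of replicates 1 and 2 on that scale. The mean log2 value rose from 11.79 ± 0.09 to 15.22 ± 0.23 (SD, n = 3 each), which is 10.80-fold (95% interval 8.62 to 13.53, limma adjusted p = 3.05e-07). Of all 42586 features, 18 rose by more. In the 18 alternatives the log2 difference lay between 3.35 and 3.57.

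Igf1, the ligand that also circulates from the liver and is made locally by osteoblasts, read 2520, 2843 and 2669 in undifferentiated cells and 7000, 8320 and 8491 in differentiated cells. The groups stood 1.30 log2 units apart at their nearest arrays. Igf1 rose 2.96-fold (95% interval 2.41 to 3.63, limma adjusted p = 3.89e-05), from a mean log2 value of 11.38 ± 0.09 to 12.95 ± 0.15 (SD, n = 3 each). For both ligands differentiated replicate 1 was the lowest array of its group. A larger increase than that of Igf1 was seen for 207 features.

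Levels of different features cannot be compared on this array, but their ratio within each array can be compared between groups. The log2 ratio of Igf2 to Igf1 was 0.40 ± 0.06 in undifferentiated and 2.27 ± 0.09 in differentiated cells (SD, n = 3 each), so Igf2 increased 3.65-fold more than Igf1. The ratio of Igf1 to Igf1r increased 5.27-fold and that of Igf2 to Igf2r increased 10.92-fold. The groups did not overlap for any of the 3 ratios. A 2-sided exact permutation test gave p = 0.1 for each, the smallest that 3 against 3 arrays allow, and 0.1 after Benjamini-Hochberg adjustment over the 3 ratios.

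**Figure D1:**
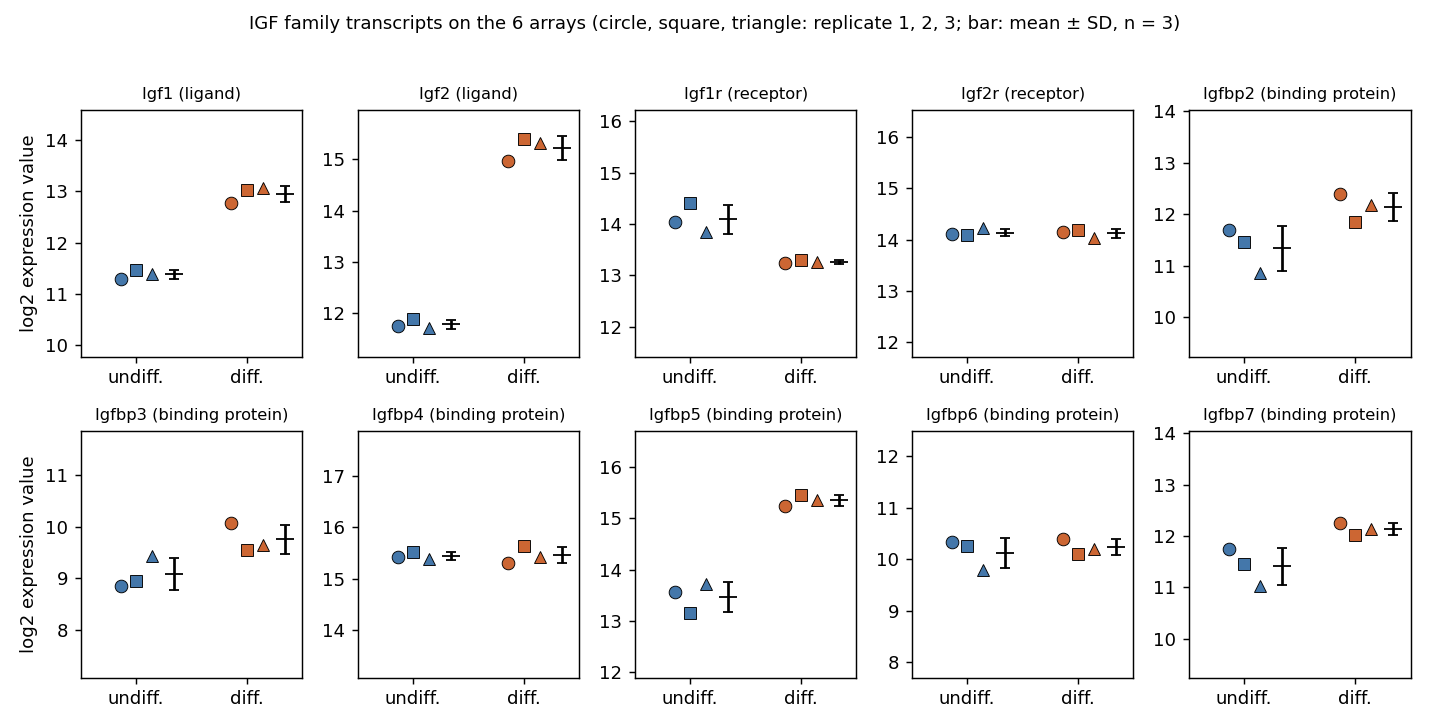
Log2 expression value (vertical axis, each panel spanning the same number of log2 units) of the 10 IGF family transcripts on 3 undifferentiated (blue) and 3 differentiated (orange) arrays, with the group mean ± SD as a bar. Igf2, Igf1 and Igfbp5 show wide gaps between groups, Igf1r lies lower in differentiated cells, and Igf2r, Igfbp4 and Igfbp6 overlap.

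Igf1r, the tyrosine kinase receptor that binds both ligands, read 16795, 21601 and 14711 in undifferentiated cells. In differentiated cells it read 9615, 10017 and 9808. The differentiated arrays were tightly grouped, within 0.06 log2 units, while the undifferentiated ones spread over 0.55. Igf1r fell 1.78-fold (95% interval 1.40 to 2.26, limma adjusted p = 0.00487), from a mean log2 value of 14.09 ± 0.28 to 13.26 ± 0.03 (SD, n = 3 each). It passed in all 18 alternatives, with adjusted p from 0.000193 to 0.0387.

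Igf2r, whose product clears IGF-2 and sorts lysosomal enzymes, read 17684, 17412 and 19036 in undifferentiated cells and 18194, 18736 and 16638 in differentiated cells. The groups overlapped, and the log2 difference was -0.02 (95% interval -0.29 to 0.26, limma adjusted p = 0.939). On the fold scale the 95% interval ran from 1.22-fold lower to 1.20-fold higher. The receptors therefore gave 1 lower and 1 that did not pass, and whether their differences differ from each other was not tested.

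Among the binding proteins, Igfbp5, which binds matrix and mineral and is abundant in bone, changed most. It read 12086, 9093 and 13415 in undifferentiated cells and 38679, 44654 and 42024 in differentiated cells. Its groups were 1.53 log2 units apart at the nearest arrays. Igfbp5 rose 3.67-fold (95% interval 2.86 to 4.69, limma adjusted p = 4.02e-05), from 13.47 ± 0.29 to 15.35 ± 0.10 (SD, n = 3 each) on the log2 scale. The brightest feature of each array read 58357 to 63237, above Igfbp5 on every array.

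Igfbp2, a carrier made by many fetal and mesenchymal cells, lies beside Igfbp5 on chromosome 1 in the RefSeq annotation. It read 3301, 2829 and 1848 in undifferentiated cells and 5389, 3680 and 4664 in differentiated cells. The groups were separated by only 0.16 log2 units. Igfbp2 rose 1.75-fold (95% interval 1.25 to 2.44, limma adjusted p = 0.0275). The call ended without undifferentiated replicate 2 (adjusted p = 0.0729), without differentiated replicate 1 (0.133) or replicate 3 (0.0912), and with array weights (0.0544).

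Igfbp7, a secreted relative that binds IGFs with low affinity, read 3429, 2813 and 2091 in undifferentiated cells and 4898, 4179 and 4522 in differentiated cells. Undifferentiated replicate 3 was the lowest array for both Igfbp7 and Igfbp2. Igfbp7 rose 1.66-fold (95% interval 1.26 to 2.18, limma adjusted p = 0.0181). Without undifferentiated replicate 2, differentiated replicate 1 or differentiated replicate 3, its adjusted p was 0.0644, 0.0908 and 0.0664.

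Igfbp3, the main IGF carrier of serum, had the opposite order within the undifferentiated group. It read 464, 495 and 693 there, replicate 3 being the highest, and 1077, 747 and 806 in differentiated cells. The nearest arrays of the groups were 0.11 log2 units apart. Igfbp3 rose 1.60-fold (95% interval 1.19 to 2.13, limma adjusted p = 0.0318), and this call was the least stable of the 7, passing in 12 of 18 alternatives. The call ended when undifferentiated replicate 1 (adjusted p = 0.0938), undifferentiated replicate 2 (0.127), differentiated replicate 1 (0.143) or differentiated replicate 3 (0.0767) was left out, and after cyclic loess (0.0516).

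Igfbp4, which restrains IGF action and is released from its ligand by the protease PAPP-A, read 43603, 47035 and 42378 in undifferentiated cells and 40658, 50774 and 44060 in differentiated cells. Its log2 difference was 0.02 (95% interval -0.28 to 0.32, limma adjusted p = 0.921), with overlapping groups. Igfbp6, a carrier that prefers IGF-2, read 1294, 1216 and 883 in undifferentiated cells and 1351, 1091 and 1179 in differentiated cells. Its log2 difference was 0.11 (95% interval -0.26 to 0.48, limma adjusted p = 0.666), and the groups overlapped.

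Undifferentiated replicate 3 stood apart from its group across the array: its correlation with undifferentiated replicates 1 and 2 was 0.979 and 0.986 over all features, against 0.994 between those replicates. It lay 0.73, 0.57 and 0.51 log2 units below the mean of replicates 1 and 2 for Igfbp2, Igfbp7 and Igfbp6, and 0.53 above it for Igfbp3. For Igf1r it lay 0.37 below and for Igfbp5 0.36 above that mean. For Igf1 and Igf2 it lay within 0.10. Without it, Igfbp2 and Igfbp7 differed by 0.57 and 0.54, Igfbp3 by 0.85, Igfbp5 by 1.99 and Igf1r by -0.96 on the log2 scale, and the same 7 members passed. At that setting 43.9% of all features passed (23.2% higher, 20.7% lower), so its counts stand against a larger background.

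By the start of the array number, undifferentiated replicate 3 and the 3 differentiated arrays form one set and undifferentiated replicates 1 and 2 another. Within the shared set, which compares 1 undifferentiated with 3 differentiated arrays, the log2 difference was 3.50 for Igf2, 1.57 for Igf1, 1.64 for Igfbp5, 1.29 for Igfbp2, 1.11 for Igfbp7 and -0.58 for Igf1r. All 6 passed with the number start as a covariate (5 higher against 6.33% of all features, 1 lower against 8.27%), a fit in which the lone undifferentiated array is assumed to vary like the others do. Igfbp3 did not, at 0.32 (limma adjusted p = 0.335). The second set holds 1 group only and gives no value. A further token in the image names followed the groups exactly, so what it stands for and differentiation cannot be told apart.

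**Figure D2:**
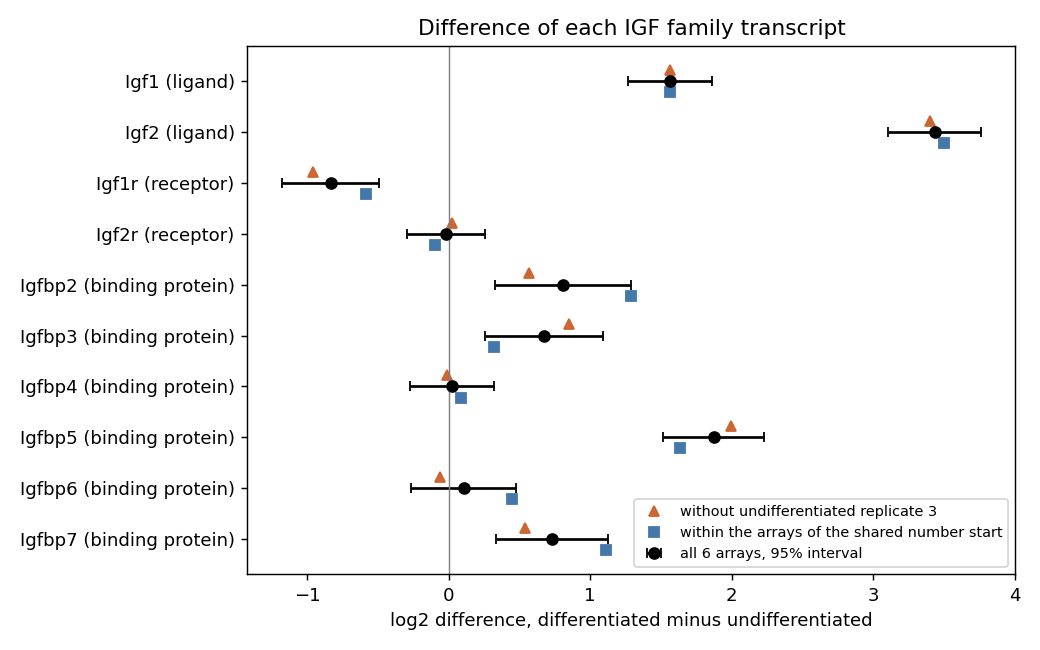
Log2 difference, differentiated minus undifferentiated, for each member, with all 6 arrays and its 95% interval (black), without undifferentiated replicate 3 (orange) and within the arrays that share a number start (blue). The 3 estimates for Igf2 and for Igf1 stay close together, whereas those for Igf1r, Igfbp2, Igfbp3, Igfbp5, Igfbp6 and Igfbp7 move with undifferentiated replicate 3.

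Other genes of the pathway were read from 9 lists holding 90 genes, of which 82 were matched to a feature. Pappa2, Irs2 and H19 are among the 8 that were not. Of the 82, 7 were higher, 19 lower and 56 did not pass, with a median log2 difference of -0.08 against 0.07 over all features. Those shares, and the counts of each list below, can be set beside the 7.97% and 11.7% of all features. Without undifferentiated replicate 3, 16 were higher and 33 lower, where 23.2% and 20.7% of all features were. With the number start as a covariate, 9 were higher and 13 lower, against 6.33% and 8.27% of all features.

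Of 10 measured proteases that free IGFs from carriers and their regulators, 3 fell and none rose, where 11.7% of all features fell and 7.97% rose. Pappa, which encodes the protease that cleaves IGFBP4 and IGFBP5, read 636, 569 and 1011 in undifferentiated cells and 278, 284 and 293 in differentiated cells. It fell 2.51-fold (limma adjusted p = 0.00132), undifferentiated replicate 3 being the highest array. Plau, the urokinase gene, fell 2.10-fold (limma adjusted p = 0.00151). Adam9, a membrane metalloproteinase gene, fell 1.62-fold (limma adjusted p = 0.0312), a call that ended when undifferentiated replicate 2 or any differentiated replicate was left out (adjusted p = 0.0663 to 0.141), and with quantile normalization (0.0753), cyclic loess (0.0876) or array weights (0.0538). Stc2, which encodes an inhibitor of PAPP-A, differed by 0.28 on the log2 scale without passing (limma adjusted p = 0.12).

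Of 5 other carriers and related proteins, 1 rose. Esm1, an IGFBP-related secreted proteoglycan of endothelial cells, rose 2.09-fold (limma adjusted p = 0.00317) from low values of 124, 142 and 153 to 274, 381 and 233. The random-probe control read 96.3 to 112. Igfals, which encodes the acid-labile subunit of the serum complex, read 1532, 1995 and 3074 in undifferentiated cells against 3512, 3224 and 3190. Its log2 difference of 0.65 did not pass (limma adjusted p = 0.0589), and did without undifferentiated replicate 3 (0.000312), whereas within the shared number start the difference was 0.10 (0.769). Igfbp1 differed by 0.39 (limma adjusted p = 0.167), and also passed without that replicate (0.0034), but differed by -0.06 within the shared number start (0.871).

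None of the 4 insulin and insulin receptor family genes passed. Without undifferentiated replicate 3, 3 of the 4 were higher, where 23.2% of all features were, and with the number start as a covariate 0 of the 4 passed. Insr, the insulin receptor gene, differed by -0.15 (limma adjusted p = 0.53). Of 7 genes of growth hormone input, the hormone axis upstream of Igf1 in liver, 1 rose and 1 fell. Jak2, the kinase of the growth hormone receptor, fell 2.62-fold (limma adjusted p = 6.34e-05), with 4611, 4978 and 4160 against 1683, 1832 and 1715. Stat5a rose 1.66-fold (limma adjusted p = 0.0378), but only 0.25 on the log2 scale within the shared number start. Its call ended without undifferentiated replicate 1 or 2 or any differentiated replicate (adjusted p = 0.0762 to 0.133).

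Downstream of the receptor, 1 of 10 substrates and adaptors rose and 1 fell. Grb14, an inhibitory adaptor of insulin-type receptors, rose 1.91-fold (limma adjusted p = 0.00391). Its relative Grb10, an imprinted gene, fell 1.87-fold (limma adjusted p = 0.00536). Irs1, the main docking protein of the receptor, differed by 0.01 (limma adjusted p = 0.976). Of 23 genes of the PI3K, Akt and mTOR branch, 1 rose, 6 fell and 16 did not pass, with a median of -0.34. Over all features 7.97% rose and 11.7% fell, with a median of 0.07. Rictor, a core subunit of mTOR complex 2, fell 2.30-fold (limma adjusted p = 0.00324). Eif4ebp1, a translation repressor under mTOR control, fell 2.08-fold (limma adjusted p = 0.025), and differentiated replicate 1 lay at or below the random probes for it. Pik3r3, a regulatory PI3K subunit gene, rose 1.67-fold (limma adjusted p = 0.0138). Leaving out undifferentiated replicate 1 or 2 or differentiated replicate 1 or 3 ended the call of Eif4ebp1 (adjusted p = 0.0673 to 0.121), and within the shared number start it differed by -0.32 on the log2 scale (limma adjusted p = 0.358). Leaving out replicate 2 of either group ended that of Pik3r3 (adjusted p = 0.0575 and 0.0731). Without undifferentiated replicate 3, 14 of the 23 fell and 1 rose, where 20.7% of all features were lower. With the number start as a covariate, 3 fell and 2 rose, where 8.27% of all features were lower.

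Of 8 measured genes of the Ras and MAPK branch, 2 fell, none rose and 6 did not pass, with a median log2 difference of -0.16. The shares over all features were 11.7% lower and 7.97% higher, with a median of 0.07.

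All 3 IGF2 mRNA-binding protein genes, whose products bind Igf2 and other transcripts, fell while Igf2 rose. Among all features, 11.7% fell. Igf2bp2 read 4197, 4049 and 5479 in undifferentiated cells and 1825, 1710 and 1989 in differentiated cells, a 2.47-fold decrease (limma adjusted p = 0.000291). Igf2bp3 fell 2.23-fold (limma adjusted p = 0.000425), with 2303, 1974 and 1811 against 1007, 841 and 880. Igf2bp1 fell 2.11-fold (limma adjusted p = 0.0302), but undifferentiated replicate 3, at 753, lay close to the highest differentiated array, at 735. Within the shared number start Igf2bp1 differed by -0.39 (limma adjusted p = 0.391). Its call also ended without undifferentiated replicate 1 or 2 or differentiated replicate 1 or 2 (adjusted p = 0.0512 to 0.141).

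Of 13 measured imprinted genes that are often described as a network with Igf2, 3 rose, 4 fell and 6 did not pass, with a median of 0.29. Plagl1, which encodes a zinc finger factor of that network, read 647, 735 and 720 in undifferentiated cells and 3025, 3290 and 3429 in differentiated cells, a 4.64-fold rise (limma adjusted p = 2.14e-06). Mest rose 1.77-fold (limma adjusted p = 0.00156). Peg10, a retrotransposon-derived gene, moved the other way. It read 3886, 4638 and 8175 in undifferentiated cells and 558, 850 and 750 in differentiated cells, a 7.45-fold decrease (limma adjusted p = 4.75e-05). Grb10, given with the adaptors, is the second of the 4 that fell. Imprinted genes thus passed in both directions, where 7.97% of all features were higher and 11.7% lower. Without undifferentiated replicate 3, 7 of the 13 were higher and 5 lower, where 23.2% and 20.7% of all features were. Within the shared number start the log2 difference was 2.17 for Plagl1, 0.71 for Mest, -3.53 for Peg10 and -1.19 for Grb10. For another of the 4 that fell it was -0.10 there, against -0.82 with all arrays.

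**Figure D3:**
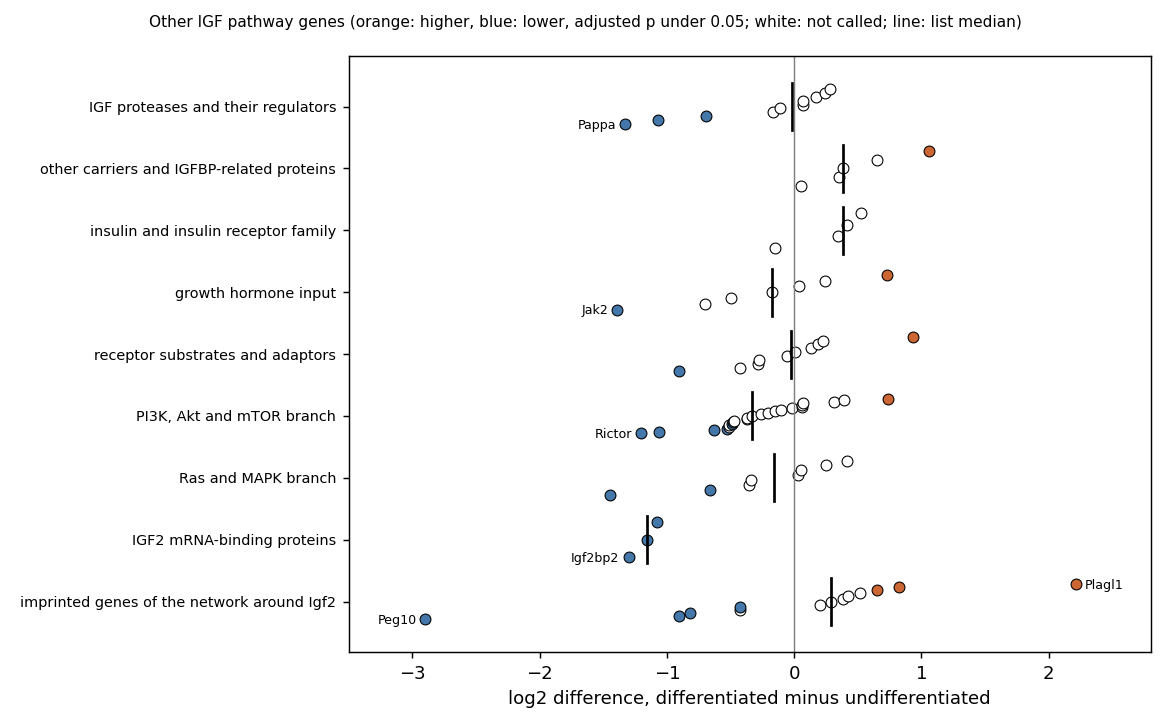
Log2 difference, differentiated minus undifferentiated, of 82 measured pathway genes by list (Grb10 stands in 2 lists), with the list median as a line and colour for genes that passed. All 3 IGF2 mRNA-binding protein genes lie left of 0, and the imprinted genes range from -2.90 (Peg10) to 2.21 (Plagl1).

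Over the 6 arrays, the named genes whose log2 values followed those of Igf2 most closely were Qdpr, Col4a1 and Igf1, with Pearson's r of 0.9992, 0.9985 and 0.9981 among 15470 genes. For Igf1 they were Qdpr, Sptb and Nrep, for Igfbp5 Pram1, Lrp11 and Lama4, and for Igf1r Mrpl33, Supt4a and Mtmr12, with r from 0.9942 to 0.9995. With 6 arrays in 2 groups, such values mostly describe the separation of the groups and are given as a description.

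Some markers of cell types also differed between the groups, read against the 7.97% of all features that were higher and the 11.7% that were lower. Of 11 osteoblast lineage markers, 5 were higher, none lower and 6 did not pass, and 10 read above the random probes on every array. The 5 were Alpl (3.70 on the log2 scale, limma adjusted p = 1.16e-07), Dmp1 (2.21, 0.000279), Pth1r (1.32, 0.000119), Bglap (1.10, 0.00346) and Sp7 (0.70, 0.0169). Summed values of the 11 overlapped between groups, at 192917 to 216942 in undifferentiated and 214371 to 218330 in differentiated cells. Col1a1, Col1a2 and Sparc, which did not pass, weigh most in that sum, with group mean log2 values of 15.62 to 15.93. Spp1 (-0.32, limma adjusted p = 0.133), Runx2 (0.09, 0.658) and Ibsp (0.11, 0.679) did not pass either. Ibsp read no higher than the random probes on 1 array. The summed value of 7 adipocyte markers was 4996 to 5627 in undifferentiated and 9271 to 9810 in differentiated cells, with 3 of 7 higher. Cebpa, a transcription factor gene, was the brightest of the 7 and rose most, by 1.42 on the log2 scale (limma adjusted p = 8.45e-05). Its mean log2 value went from 11.15 to 12.57, so the sum mostly follows this gene. Pparg (0.72, limma adjusted p = 0.0359) and Cfd (0.46, 0.0376) were the others that passed. Lpl (0.55, limma adjusted p = 0.0619), Plin1 (0.50, 0.114), Adipoq (0.17, 0.412) and Fabp4 (-0.54, 0.0586) did not. For 6 skeletal muscle markers the sums were 3137 to 4211 and 4602 to 4782, with 1 higher. That was Ckm (0.57, limma adjusted p = 0.0316), also the brightest of the 6. For 6 endothelial markers the sums were 1627 to 1834 and 2107 to 2327, with 1 higher while Cdh5 stayed no higher than the random-probe control on all 6 arrays. Sums of 5 chondrocyte markers were lower in differentiated cells, at 4709 to 5748 against 6011 to 6772, with 1 higher and 1 lower. Sox9, which was lower (-0.54, limma adjusted p = 0.0284), weighs most in that sum, with mean log2 values of 12.41 and 11.87. Acan was higher (0.63, limma adjusted p = 0.0344), and Col2a1 (0.05), Col9a1 (0.11) and Matn1 (0.21) did not pass. Sums of 5 macrophage markers overlapped, at 1610 to 1885 and 1876 to 2004, with 1 lower. Their part in the IGF family differences was not tested.

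**Figure D4:**
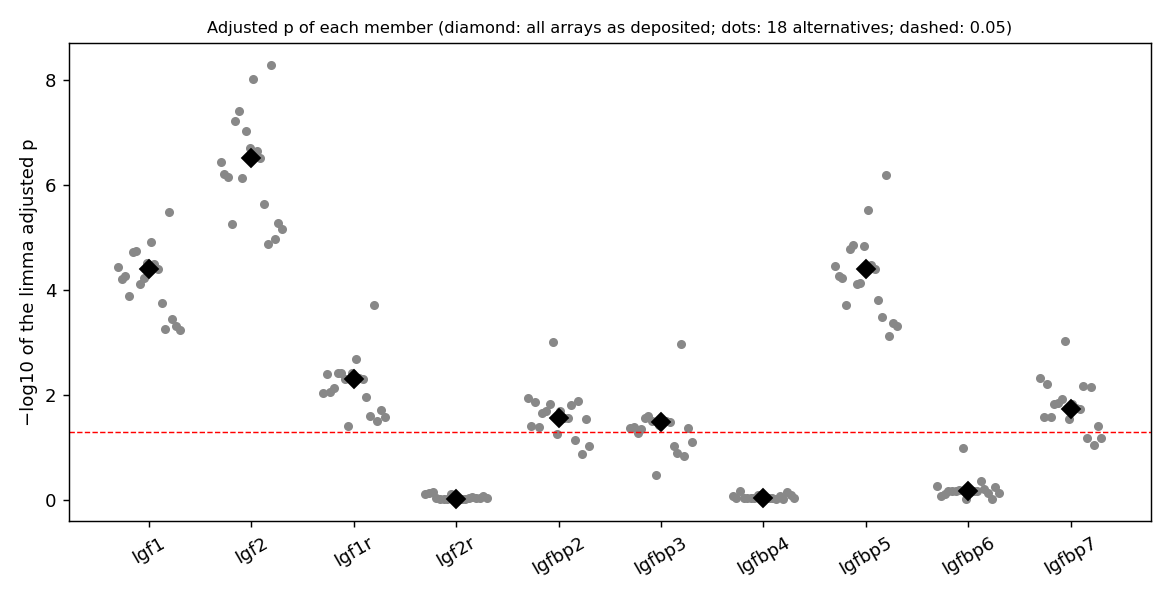
Size of the limma adjusted p (−log10, vertical axis) for each member, with all arrays as deposited (diamond) and under 18 alternatives (dots), against the 0.05 threshold (dashed line). Igf1, Igf2, Igfbp5 and Igf1r stay above the line throughout, Igf2r, Igfbp4 and Igfbp6 below it, and Igfbp2, Igfbp3 and Igfbp7 cross it.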

How the data were processed

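Each of 6 cultures gave 1 single-colour NimbleGen array, labelled with Cy3, and groups were taken from the sample titles. The authors deposited 1 linear intensity for each feature. RMA is named in the submitters' processing notes. Which version, arrays, build and annotation it used is not given in the sources used here. A feature is an identifier with a number of probes, per the file headers, 9 for 42566 of 42586 features. A feature of 6131 random probes served as the control and was not tested. Features were named through unversioned RefSeq transcripts (GRCm38.p6 table, names only): 17849 had 1 symbol and 24737 none.

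Log2 of the deposited intensity was fitted for all 42586 features with limma 3.58.1 in R 4.3.3 (lmFit, eBayes), 2-sided, with Benjamini-Hochberg adjustment and an adjusted p under 0.05. The script was first tested on simulated data. P-values measure only the spread between these samples, and 3 arrays per group limit the precision. A listed gene with several features is given by the one with the highest mean.

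The members and lists were chosen with earlier results of these data known. The text names all members, up to 4 passing genes per list by size, a fixed set (Igfbp1, Igfals, Pappa, Stc2, Insr, Irs1 and the 3 IGF2 mRNA-binding proteins) and, for 4 members, the 3 genes of highest correlation. Some genes that this rule would name are not reported here. Alternatives were quantile, median and cyclic loess scaling, an offset of 50, 2 filters on dim features, a block for the replicate number, a covariate for the start of the array number, array weights, an intensity trend, 1 feature a gene, the series' value table (largest difference 0) and each array left out.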

Additional observations from a re-analysis of the deposited data

How the results depend on the processing

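Over 18 alternatives, Igf1, Igf2, Igf1r and Igfbp5 passed in the same direction each time. The series' value table holds the same values, so that alternative could not change a call. The array weights stopped before the convergence tolerance of limma was reached, which limits the calls read at that setting. The 2 filters, 1 feature a gene, the replicate block and the intensity trend left each member's difference unchanged and altered only its p-value. Igfbp2, Igfbp7 and Igfbp3 kept their direction throughout and passed in 14, 15 and 12 of 18. The count of members higher in differentiated cells was 3 to 6 with 1 array left out, against 6, and that of members lower was 1 each time. Without undifferentiated replicate 2, differentiated replicate 1 or differentiated replicate 3, 3 members were higher. Some differences that had not passed changed sign. Igf2r turned to 0.062 after quantile normalization and 0.075 after cyclic loess. Igfbp4 and Irs1 turned to -0.030 and -0.045 with equal array medians. Equal medians move the difference of every feature by the same amount, and that of Igf2 went from 3.43 to 3.38. With a covariate for the start of the array number, Igfbp1 turned to -0.060 and Insr to 0.12. With 1 array left out, the differences ranged from -0.051 to 0.034 for Igf2r, -0.066 to 0.095 for Igfbp4, -0.061 to 0.21 for Igfbp6, -0.29 to 0.0033 for Insr and -0.062 to 0.079 for Irs1. The cause of the changes of sign at the other settings was not tested. Over all features 8365 passed, 3396 higher and 4969 lower. With 1 array left out the count ran from 3371 to 18691 (1039 to 9871 higher, 2332 to 8820 lower), the most without undifferentiated replicate 3. It was 3367 with 1 feature a gene (1485 higher, 1882 lower), where 17298 genes were tested. Of the passing features 40.6% were higher, and 30.7% with equal array medians. Same-numbered arrays of the groups were not paired by the labels, and their deviations correlated at 0.01, 0.21 and 0.06. With the replicate number as a block, 8800 features passed (3626 higher, 5174 lower) with the same member counts of 6 and 1, and Igfals passed (adjusted p = 0.0461). The 3 within-array ratios kept their direction, but 3 against 3 arrays cannot pass in that test.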
